A study of Homo sapiens with 8 samples.

Results

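Receptor tyrosine kinases are cell-surface receptors that bind growth factors and start signalling inside the cell. The 10 described here are *EGFR*, *ERBB2*, *ERBB3*, *MET*, *FGFR1*, *FGFR3*, *IGF1R*, *AXL*, *EPHA2* and *DDR1*, a list of receptors that act upstream of RAS and ERK. They are 10 of the 33791 genes that had transcripts in the deposited tables, and all 10 were among the 14653 genes with enough reads to be tested.

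A receptor of this family pairs with a neighbour when its ligand binds, and the pair phosphorylates its own tail. Adaptor proteins dock there and activate RAS, which switches on the RAF, MEK and ERK kinases. ERK phosphorylates the transcriptional repressors CIC and ERF and takes them off their target genes, so the receptors stand at the start of a chain whose last links were removed in this experiment. *EGFR* and *IGF1R* are also on the list of shared CIC and ERF target genes that the study drew from chromatin immunoprecipitation.

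PNT2, a human prostate epithelial line made immortal in culture, was profiled by RNA-seq in 4 groups of 2 libraries (replicates A and B). WT is the parental line. In the *ERF* KD cells, *ERF* was silenced by short hairpin RNA under puromycin selection, with hairpins named shERFA1 and shERFB1. In the *CIC* KO cells, *CIC* was disrupted by guide RNA and Cas9 under blasticidin selection, with guides named sgCIC1 and sgCIC2. *ERF* KD + *CIC* KO, which the labels call a codeletion, combined shERFA1 with either guide. The sources used here do not give which hairpin or guide a replicate letter stands for, whether WT carried control vectors, or whether the letters are separate cultures, so the p-values measure the spread between these libraries, which may be technical.

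The labels of the single-loss libraries are in doubt. *ERF* mRNA was 55.8 and 55.9 CPM in WT, 81.2 and 77.8 in those labelled *ERF* KD, 18.8 and 11.7 in those labelled *CIC* KO, and 11.6 and 10.4 in *ERF* KD + *CIC* KO. Low *ERF* therefore sat in the libraries labelled *CIC* KO, and the names of their files contradict the labels. The labels were kept, and every direction given for a single-loss group rests on them. *CIC* mRNA, which Cas9 cutting need not lower, was 128 and 129 CPM in WT, 109 in both libraries labelled *ERF* KD, 132 and 131 in those labelled *CIC* KO, and 90.9 and 66.4 in *ERF* KD + *CIC* KO.

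CPM here is a gene's share of the counts of a library, after TMM scaling of the library size, and TPM is the length-corrected abundance that kallisto gives, the only scale on which levels of different genes are compared below. Library totals ran from 19477473 to 25813157 estimated counts, and 3 counts, taken as the floor of detection, was 0.125 to 0.165 CPM. The luminal keratins *KRT8*, *KRT18* and *KRT19* were at 344 CPM or more in every library, though other epithelial markers such as *CDH1* were low in the libraries labelled *ERF* KD, as given further on. Of prostate identity, the secretory marker *KLK3* had 0 counts in every library. Of the basal markers, *KRT5* lay between 15.0 and 343 CPM and *TP63* was at most 0.577 CPM. The markers of fibroblasts were mixed. *DCN* was at most 0.475 CPM and *LUM* had 0 counts in every library. *COL1A1* lay between 18.9 and 65.5 CPM and *PDGFRB* between 1.97 and 36.4 CPM. Markers of endothelium (*PECAM1* at most 2.45 CPM) and leukocytes (*PTPRC* at most 1.09 CPM) were low throughout, while *CD68*, a macrophage marker, lay between 5.54 and 51.8 CPM. In bulk RNA, fewer cells of a type and less RNA per cell cannot be told apart.

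In WT, *AXL* was the most abundant of the 10 receptors per unit length, and *FGFR3* the least. *AXL*, which binds GAS6 and belongs to the TAM group, was at 236 and 208 TPM in replicates A and B. *EGFR*, the receptor for EGF, TGFA and amphiregulin, followed at 135 and 139 TPM, and *EPHA2*, which binds ephrins on neighbouring cells, at 114 and 111 TPM. These levels did not overlap each other. *MET*, the receptor for hepatocyte growth factor, was at 89.3 and 84.5 TPM. Lower in the order, some neighbours overlapped. The collagen receptor *DDR1* was at 53.7 and 58.8 TPM and *ERBB3*, which binds neuregulins but has a weak kinase of its own, at 40.1 and 54.2 TPM, so that their ranges met. *FGFR1*, at 42.3 and 44.9 TPM, lay within the range of *ERBB3*. *IGF1R*, which binds IGF1 and IGF2, was at 37.4 and 36.9 TPM, below both *FGFR1* libraries. *ERBB2*, which has no ligand of its own and works as a partner of other ERBB receptors, was at 30.3 and 21.3 TPM, and the FGF receptor *FGFR3* at 5.85 and 4.46 TPM.

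Among 58 receptor tyrosine kinases listed, these 10 include the 4 highest in WT, and together they made up 67.9% and 69.3% of the summed receptor TPM. *MST1R*, the receptor for macrophage-stimulating protein, took rank 5 at 73.6 and 71.7 TPM, and was at 13.2 and 6.05 TPM in the libraries labelled *ERF* KD. The other 48 receptors include 29 that were tested and 19 that were not, the latter with at most 34 counts in any library (*EPHB1*).

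**Figure D1:**
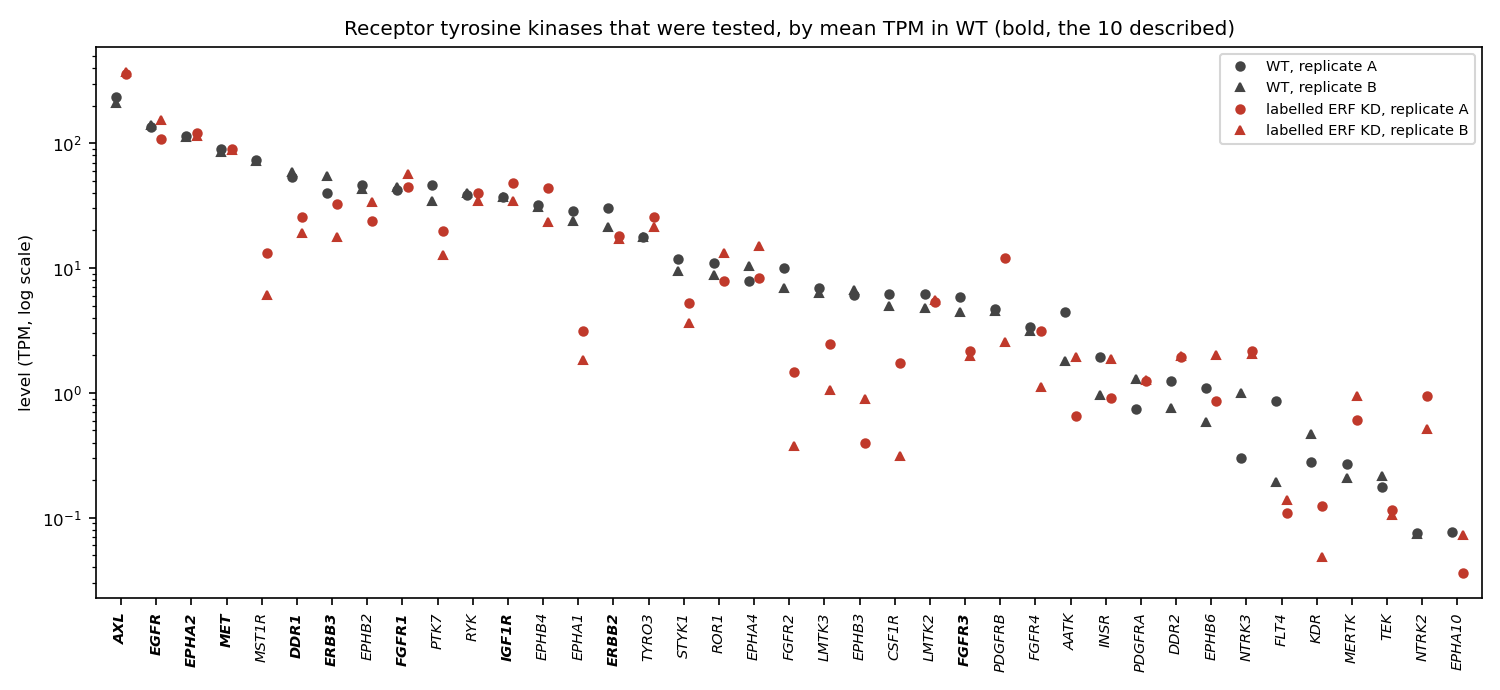
Level of each of the 39 receptor tyrosine kinases that were tested, in TPM on a log axis, in the 2 WT libraries (grey) and the 2 libraries labelled *ERF* KD (red); names in bold are the 10 described here and points at 0 are not drawn. *AXL*, *EGFR*, *EPHA2* and *MET* lead the order in WT, and the red points fall far below the grey ones for *MST1R*, *EPHA1*, *FGFR2*, *EPHB3* and *CSF1R*.

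The first comparison is that of labelled *ERF* KD against WT. *AXL* rose, *DDR1* and *FGFR3* fell, and the other 7 did not pass the test. That is 3 of 10 receptors called, 1 higher and 2 lower, where 10.1% of all genes tested were called (4.01% higher and 6.07% lower). A gene was called when its adjusted p was under 0.05 in a quasi-likelihood test by edgeR, in a fit to all 8 libraries, with Benjamini-Hochberg adjustment over the 14653 genes. The median log2 fold change of the 10 was -0.01, against 0.01 over all genes tested.

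*AXL* (chromosome 19, 41219203 to 41261766, plus strand, GRCh38) was at 626 and 606 CPM in WT and at 996 and 1078 CPM in the libraries labelled *ERF* KD. Its level was 603 and 663 CPM with the *CIC* KO label, and 599 and 560 CPM in *ERF* KD + *CIC* KO. The libraries labelled *ERF* KD stood apart, both above the other 6. The log2 fold change over WT was 0.75 (SE 0.131, adjusted p = 0.00941 by edgeR), a 1.68-fold rise. The adjusted p was 0.0839 without WT replicate A, 0.0908 without WT replicate B and 0.0523 without *ERF* KD replicate B, with log2 fold changes from 0.70 to 0.77. *AXL* was made up of the same transcripts throughout: AXL-201 held between 59.4% and 64.7% of its TPM in each library and AXL-202, which is shorter, between 33.3% and 38.8%.

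*DDR1* (chromosome 6, 30876421 to 30900156, plus strand) moved the other way. It was at 87.2 and 89.3 CPM in WT, at 50.7 and 33.1 CPM in the libraries labelled *ERF* KD, at 89.3 and 73.4 CPM in those labelled *CIC* KO, and at 79.5 and 76.4 CPM in *ERF* KD + *CIC* KO. Both libraries labelled *ERF* KD lay below the other 6. The log2 fold change was -1.07 (SE 0.202, adjusted p = 0.0132 by edgeR), 2.11-fold lower. It was -1.10 without WT replicate A (adjusted p = 0.0619) and -1.06 without WT replicate B (adjusted p = 0.0663). Protein-coding transcripts held at least 75.4% of *DDR1* TPM in every library, led by DDR1-239.

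*FGFR3* (chromosome 4, 1793293 to 1808872, plus strand) had few reads. It was at 9.26 and 7.44 CPM in WT, at 2.79 and 3.03 CPM in the libraries labelled *ERF* KD, at 10.5 and 5.48 CPM in those labelled *CIC* KO, and at 8.08 and 5.86 CPM in *ERF* KD + *CIC* KO. The libraries labelled *ERF* KD were again below all others. The log2 fold change was -1.52 (SE 0.358, adjusted p = 0.0331 by edgeR), 2.87-fold lower. The call was lost with any 1 library of either group left out, with adjusted p between 0.0848 (without WT replicate B) and 0.171 (without WT replicate A); it was 0.123 without *ERF* KD replicate A and 0.106 without *ERF* KD replicate B. The log2 fold change was -1.29 on length-scaled counts, in which transcript lengths are taken into account (adjusted p = 0.0950), and the adjusted p was 0.156 by limma on log2(TPM + 1). The transcript estimates were unstable at this depth: the coding transcript FGFR3-202 held between 0% and 45.3% of the gene's TPM in a library, and FGFR3-207, a short transcript with a retained intron, between 24.6% and 54.3%.

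*ERBB3* and *FGFR1* did not pass the test, but both were called with the replicate letter as a block. *ERBB3* (chromosome 12, 56076799 to 56103505, plus strand) was at 98.9 and 97.4 CPM in WT and at 69.2 and 30.2 CPM in labelled *ERF* KD. In the libraries labelled *CIC* KO it was at 88.1 and 55.6 CPM, and in *ERF* KD + *CIC* KO at 84.7 and 78.8 CPM. All 6 libraries with a loss lay below both WT libraries, and replicate B labelled *ERF* KD was the lowest. The log2 fold change in labelled *ERF* KD was -0.98 (SE 0.353, 95% interval -1.79 to -0.17, adjusted p = 0.127 by edgeR). With the replicate letter as a block it was -1.07 and was called (adjusted p = 0.0220), and without *ERF* KD replicate A it was -1.70 (adjusted p = 0.0123), but without *ERF* KD replicate B it was -0.50 (adjusted p = 0.334). DESeq2 called it as well (adjusted p = 0.0275). *ERBB3* shares 31 exonic bases with *AC034102.2* on the same strand.

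*FGFR1* (chromosome 8, 38400215 to 38468834, minus strand) was at 60.8 and 86.0 CPM in WT and at 95.8 and 119 CPM in labelled *ERF* KD. Levels were 64.3 and 102 CPM in labelled *CIC* KO, and 52.2 and 69.0 CPM in *ERF* KD + *CIC* KO. Replicate B was higher than replicate A in each group, and the libraries labelled *ERF* KD lay above those of WT. The log2 fold change was 0.55 (SE 0.263, 95% interval -0.05 to 1.16, adjusted p = 0.243 by edgeR). With the block it was 0.57 and was called (adjusted p = 0.0124), so that the block brought the number of receptors called to 5 of 10, while the share of all genes called went to 18.2%. On TPM the *FGFR1* change was smaller, with a log2 fold change of 0.20 by limma on log2(TPM + 1) (adjusted p = 0.548). *FGFR1* shares 138 exonic bases with *LETM2* on the opposite strand, and the strandedness of the libraries was not given. Reads of the shared bases may therefore not be told apart. Protein-coding transcripts held between 48.0% and 77.2% of *FGFR1* TPM in a library.

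The remaining 5 receptors did not pass the test. *EGFR* (chromosome 7, 55019021 to 55211628, plus strand) was at 794 and 852 CPM in WT and at 644 and 987 CPM in the libraries labelled *ERF* KD. These 2 libraries lay on either side of WT, and the log2 fold change was -0.01 (SE 0.213, 95% interval -0.50 to 0.48, adjusted p = 0.980 by edgeR). *MET* (chromosome 7, 116672390 to 116798386, plus strand) was at 285 and 297 CPM in WT and at 292 and 290 CPM in labelled *ERF* KD, with an interval of the log2 difference from -0.40 to 0.40. *IGF1R* (chromosome 15, 98648539 to 98964530, plus strand) was at 130 and 133 CPM in WT and at 142 and 139 CPM in labelled *ERF* KD. It had the narrowest interval of the 10, from -0.17 to 0.36.

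*EPHA2* (chromosome 1, 16124337 to 16156087, minus strand) was at 268 and 297 CPM in WT and at 311 and 302 CPM in the libraries labelled *ERF* KD. The interval of the log2 difference ran from -0.32 to 0.55. *ERBB2* (chromosome 17, 39687914 to 39730426, plus strand) was at 32.8 and 22.1 CPM in WT and at 27.3 and 15.1 CPM in labelled *ERF* KD, where the 2 groups overlapped and the interval was wide, from -1.17 to 0.43. *ERBB2* shares 571 exonic bases with *MIEN1* and 194 with *PGAP3*, both on the opposite strand, and the strandedness of the libraries was not given, so reads from these genes may not be told apart. kallisto spread its reads over short and intron-retaining transcripts, of which ERBB2-210 held between 8.88% and 55.6% of the gene's TPM in a library. In CPM, 7 of the 10 receptors did not overlap between labelled *ERF* KD and WT, where 56.3% of all genes tested did not.

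**Figure D2:**
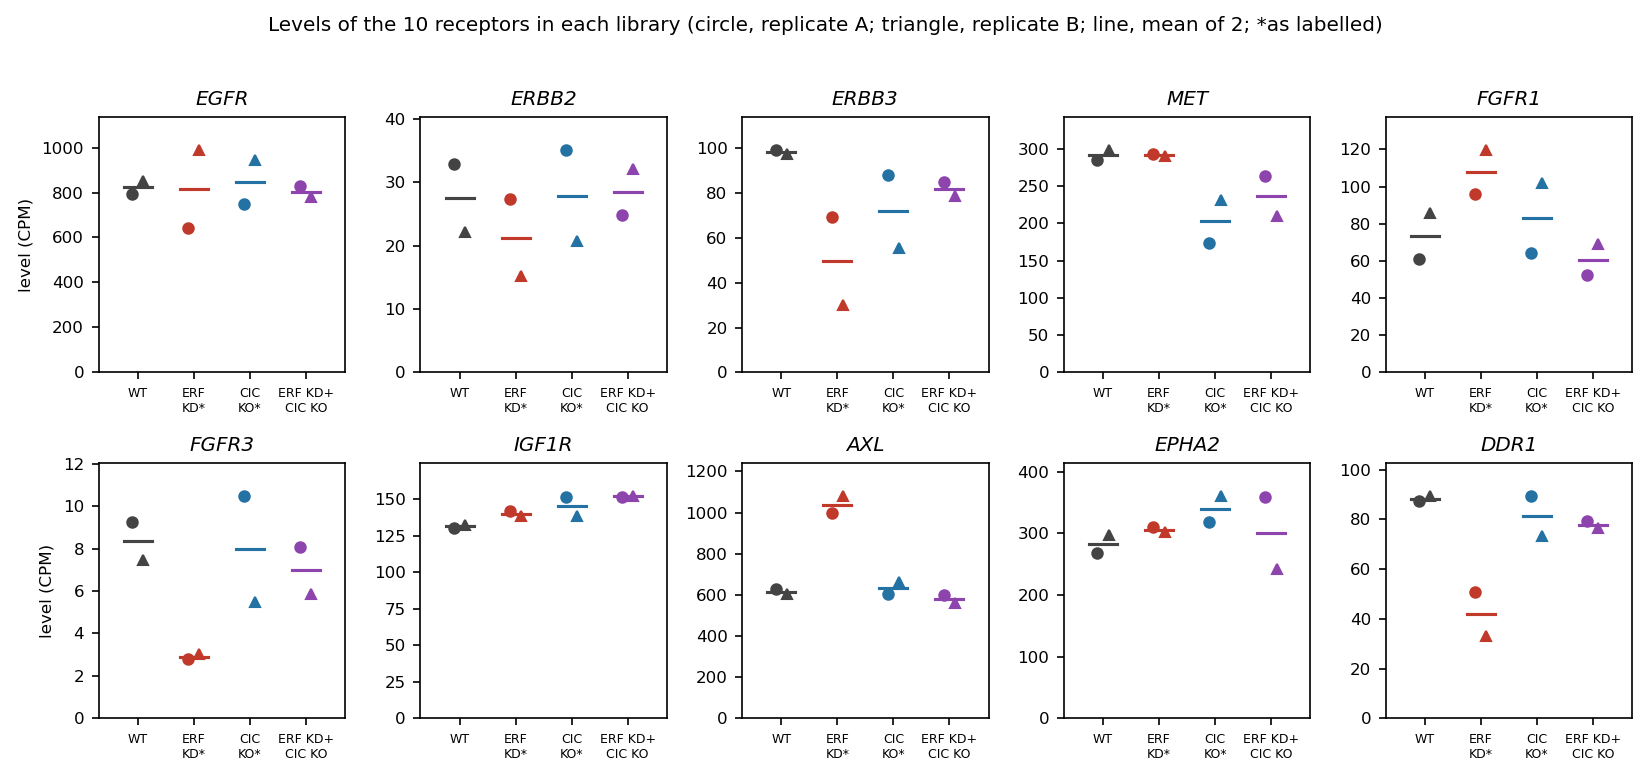
Level of each of the 10 receptors in CPM (axis from 0) in the 8 libraries, grouped as labelled, with a circle for replicate A, a triangle for replicate B and a line at the mean of 2. The libraries labelled *ERF* KD stand above the other 6 for *AXL* (996 and 1078 CPM) and below them for *DDR1* and *FGFR3*, while *IGF1R* stays between 130 and 152 CPM in all 8.

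The make-up of receptor mRNA differed in the libraries labelled *ERF* KD. The 10 receptors summed to 784 and 764 TPM in WT and to 850 and 874 TPM in labelled *ERF* KD, whereas all 58 receptors summed to 1154 and 1102 TPM in WT and to 1079 and 1066 TPM in labelled *ERF* KD. *AXL* made up 30.1% and 27.3% of the sum of the 10 in WT and 42.4% and 42.5% in labelled *ERF* KD. *DDR1* made up 6.85% and 7.69% of the sum of the 10 in WT and 3.03% and 2.19% in labelled *ERF* KD. The share of the 10 in the summed TPM of all 58 receptors was 78.8% and 82.0% in labelled *ERF* KD, and between 66.1% and 69.8% in the other 6 libraries. These shares are descriptions and carry no test.

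**Figure D3:**
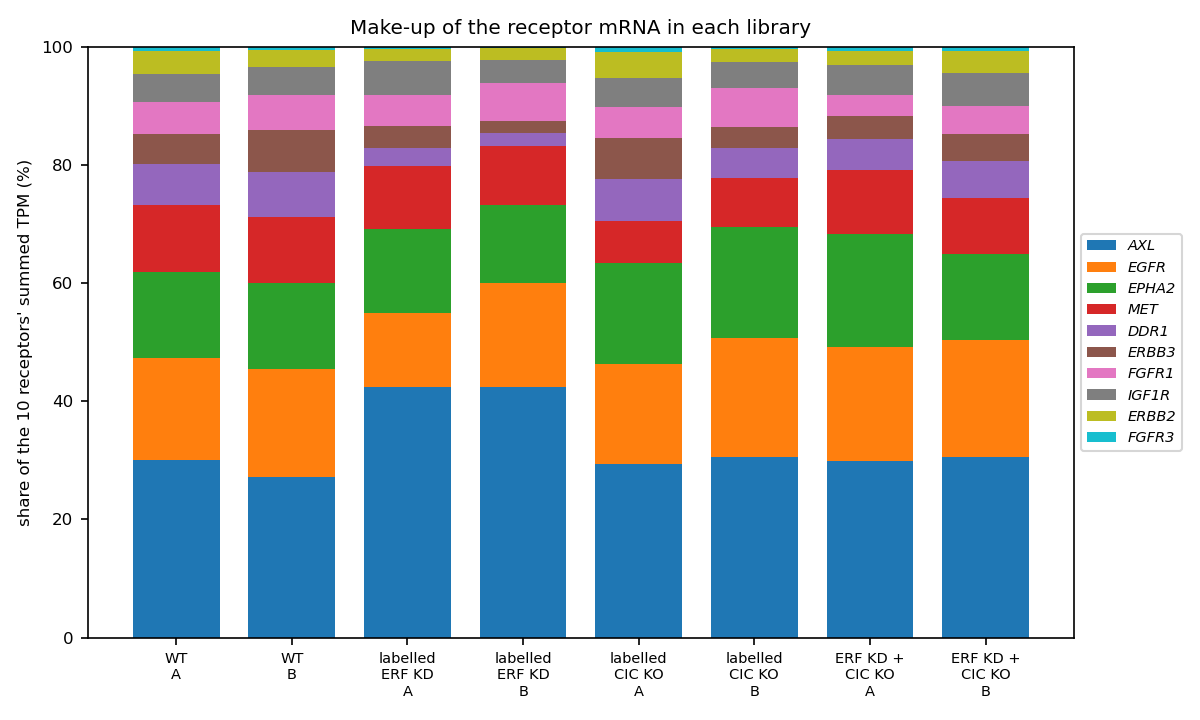
Share of each receptor in the summed TPM of the 10, in percent, for each of the 8 libraries. *AXL* (bottom segment) takes 42.4% and 42.5% in the libraries labelled *ERF* KD and between 27.3% and 30.6% in the other 6.

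The *CIC* KO label went with no receptor call. In labelled *CIC* KO against WT, 0 of 10 receptors were called, where 0.0% of all genes tested were. edgeR called 0 of 14653 genes, with 587 at an unadjusted p under 0.05, and DESeq2 called 26, none of them among the 10. *MET* was the receptor farthest from WT, at 173 and 231 CPM, below both WT libraries. Its log2 fold change was -0.52 (SE 0.174, 95% interval -0.92 to -0.13), with an unadjusted p of 0.0161 by edgeR that did not pass adjustment over all genes. *EPHA2*, at 319 and 360 CPM, was above both WT libraries, with a log2 fold change of 0.27 and an interval from -0.17 to 0.70. *EGFR* was at 747 and 947 CPM and *IGF1R* at 152 and 139 CPM, with intervals from -0.45 to 0.53 and from -0.12 to 0.41. *ERBB2* was at 35.0 and 20.7 CPM in these libraries. For *ERBB3*, *MET*, *EPHA2* and *IGF1R*, 4 of 10, the groups did not overlap, where 32.2% of all genes did not.

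*ERF* KD + *CIC* KO, whose comparison with WT does not turn on the single-loss labels, also had 0 of 10 receptors called against WT, where 0.0682% of all genes were (10 of 14653, 0.00682% higher and 0.0614% lower). The log2 fold changes ran from -0.30 for *MET* to 0.21 for *IGF1R*, with 0 of 10 at an unadjusted p under 0.05 and 0 called by DESeq2. *MET* was at 263 and 210 CPM, below both WT libraries, with an interval from -0.70 to 0.10. *IGF1R* was at 152 CPM in both libraries, above WT, with an interval from -0.05 to 0.47. *EGFR*, at 829 and 779 CPM, overlapped WT, with an interval from -0.52 to 0.46. *EPHA2* was at 359 and 243 CPM, above and below WT, and *ERBB2* at 24.8 and 32.0 CPM, between the WT libraries. For 5 of 10 receptors (*IGF1R* above, *ERBB3*, *MET*, *AXL* and *DDR1* below) the groups did not overlap, where 49.5% of all genes did not.

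Counts and TPM differed for *ERBB3*, *DDR1*, *FGFR1* and *IGF1R* in this comparison. *IGF1R*, above WT on counts, was at 37.3 and 34.0 TPM against 37.4 and 36.9 TPM in WT, and its log2 fold change turned to -0.0586 by limma on log2(TPM + 1). *ERBB3* was at 28.8 and 27.6 TPM in *ERF* KD + *CIC* KO against 40.1 and 54.2 in WT, *DDR1* at 38.5 and 37.6 against 53.7 and 58.8, and *FGFR1* at 26.0 and 29.2 against 42.3 and 44.9. For these 3 both libraries lay below both WT libraries on this scale. By limma on log2(TPM + 1) the log2 fold changes were -0.71 for *ERBB3*, -0.55 for *DDR1* and -0.64 for *FGFR1* (adjusted p = 0.525, 0.379 and 0.213), compared with -0.26, -0.18 and -0.28 on counts. The median over all genes was -0.06 on TPM. The effective lengths and the division of reads among transcripts enter TPM and not the gene counts, and their part in the difference was not tested.

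**Figure D4:**
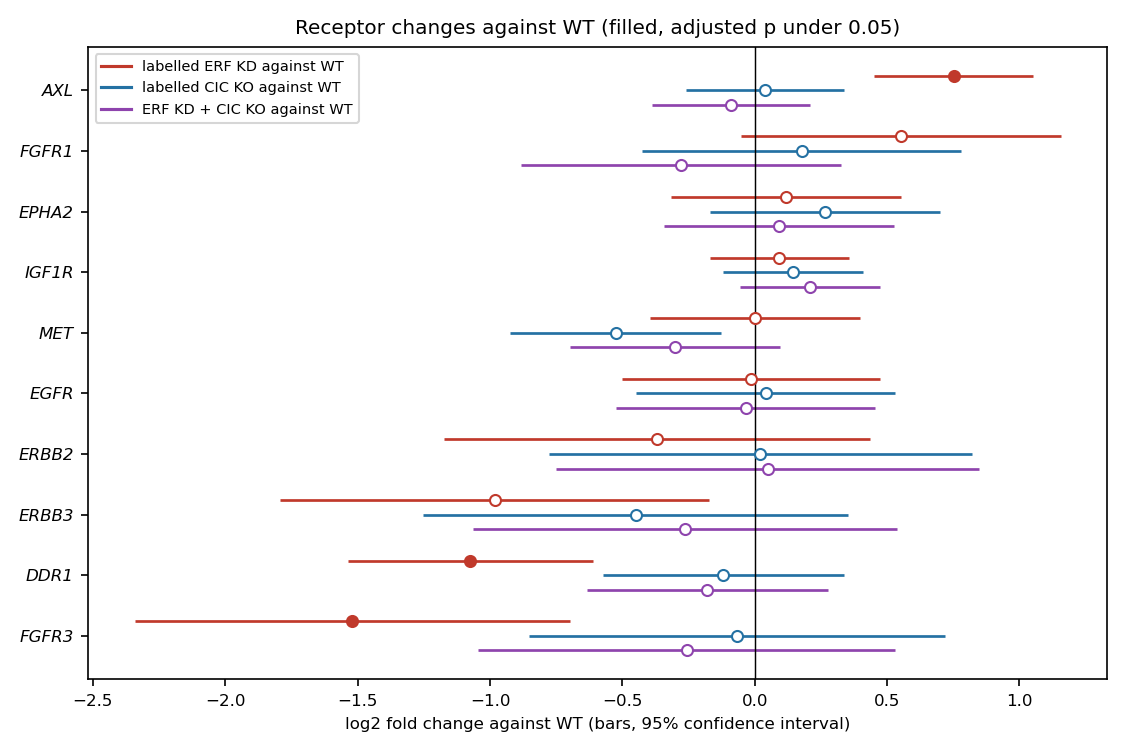
Log2 fold change of each of the 10 receptors against WT with its 95% confidence interval, for labelled *ERF* KD (red), labelled *CIC* KO (blue) and *ERF* KD + *CIC* KO (purple); filled points have an adjusted p under 0.05. Filled points are found for *AXL* (0.75), *DDR1* (-1.07) and *FGFR3* (-1.52) in labelled *ERF* KD, and every interval in *ERF* KD + *CIC* KO crosses 0.

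*AXL* and *DDR1* also differed between *ERF* KD + *CIC* KO and labelled *ERF* KD. The comparisons among the groups with a loss share libraries with those above, so their values are given side by side and not as separate evidence. In *ERF* KD + *CIC* KO against labelled *ERF* KD, *AXL* was lower by -0.84 on the log2 scale (SE 0.131, adjusted p = 0.00545 by edgeR) and *DDR1* higher by 0.90 (SE 0.201, adjusted p = 0.0253). That is 2 of 10 called, where 11.7% of all genes were (6.04% higher and 5.62% lower), and 7 of 10 did not overlap, where 53.4% of all genes did not. The *DDR1* call was lost without *ERF* KD replicate B (log2 0.62, adjusted p = 0.0848), without *ERF* KD + *CIC* KO replicate A (0.87, adjusted p = 0.122) and without its replicate B (0.92, adjusted p = 0.0860). *FGFR3* differed by 1.26 (adjusted p = 0.0575) and *FGFR1* by -0.83 (adjusted p = 0.0821), and both were called with the replicate block (1.23, adjusted p = 0.0191, and -0.84, adjusted p = 0.00181), which made 4 of 10, where the block called 20.6% of all genes.

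Against labelled *CIC* KO, *ERF* KD + *CIC* KO had 0 of 10 receptors called, where 0.0% of all genes were (edgeR 0, with 1216 at an unadjusted p under 0.05, and 146 by DESeq2). The log2 differences ran from -0.45 for *FGFR1* to 0.22 for *MET*, and *IGF1R* and *AXL* did not overlap, 2 of 10, where 36.0% of all genes did not. The 2 single-loss groups differed in the same 3 receptors as labelled *ERF* KD and WT, where 9.4% of all genes were called (3.75% higher and 5.65% lower), and 5 of 10 did not overlap, where 49.1% of all genes did not. The log2 difference, labelled *ERF* KD minus labelled *CIC* KO, was 0.71 for *AXL* (adjusted p = 0.0122 by edgeR), -0.96 for *DDR1* (adjusted p = 0.0219) and -1.45 for *FGFR3* (adjusted p = 0.0403). None of the 3 was called with only these 2 groups in the fit (adjusted p = 0.0663, 0.0797 and 0.113), without *ERF* KD replicate B (0.0633, 0.0702 and 0.121) or without *CIC* KO replicate A (0.0804, 0.115 and 0.204). For *FGFR3* the call was kept only without *CIC* KO replicate B, and the adjusted p without each of the other 7 libraries ran from 0.0574 to 0.204. *MET* was 0.52 higher in labelled *ERF* KD, without passing the test (adjusted p = 0.109).

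The interaction term compares the change in *ERF* KD + *CIC* KO with both single-loss changes added together, and exchanging the single-loss labels leaves it as it is. Of the 10, it was called for *AXL*, where 4.15% of all genes were called (2.67% higher and 1.48% lower). Its value for *AXL* was -0.88 (SE 0.185, adjusted p = 0.0373 by edgeR), and the call was lost with any 1 of the 8 libraries left out (values from -0.94 to -0.81, adjusted p from 0.0592 to 0.168). The values for *DDR1* (1.01, adjusted p = 0.101) and *FGFR1* (-1.01, adjusted p = 0.207) passed with the replicate block (adjusted p = 0.0227 and 0.00767), which called 9.55% of all genes, and those for *FGFR3* (1.33, adjusted p = 0.208) and *ERBB3* (1.17, adjusted p = 0.273) did not.

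The libraries labelled *ERF* KD, where *AXL*, *DDR1* and *FGFR3* stood apart, also stood apart in their epithelial genes. Of 14 epithelial genes, 12 fell in labelled *ERF* KD against WT and none rose, and their summed level was 1833 and 2303 CPM there, against 4568 to 5976 CPM in the other 6 libraries. *CDH1*, the main adhesion protein of epithelia, was at 362 and 385 CPM in WT, 17.6 CPM in both libraries labelled *ERF* KD, 341 and 297 CPM in labelled *CIC* KO, and 258 and 273 CPM in *ERF* KD + *CIC* KO. Of 12 mesenchymal genes, 5 rose (*CDH2*, *TWIST1*, *VIM*, *ZEB1* and *ZEB2*) and *FN1* fell, while their summed level, 3399 and 4286 CPM, overlapped that of WT (3293 and 4331 CPM). *FN1* made up most of that sum, at 3038 and 3948 CPM in WT and 1587 and 1966 CPM in labelled *ERF* KD, where *VIM* was at 1497 and 1953 CPM against 105 and 211 CPM in WT. In *ERF* KD + *CIC* KO against WT, 0 genes of either list were called by edgeR, with 2 epithelial and 3 mesenchymal genes at an unadjusted p under 0.05. Their part in the receptor differences was not tested.

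**Figure D5:**
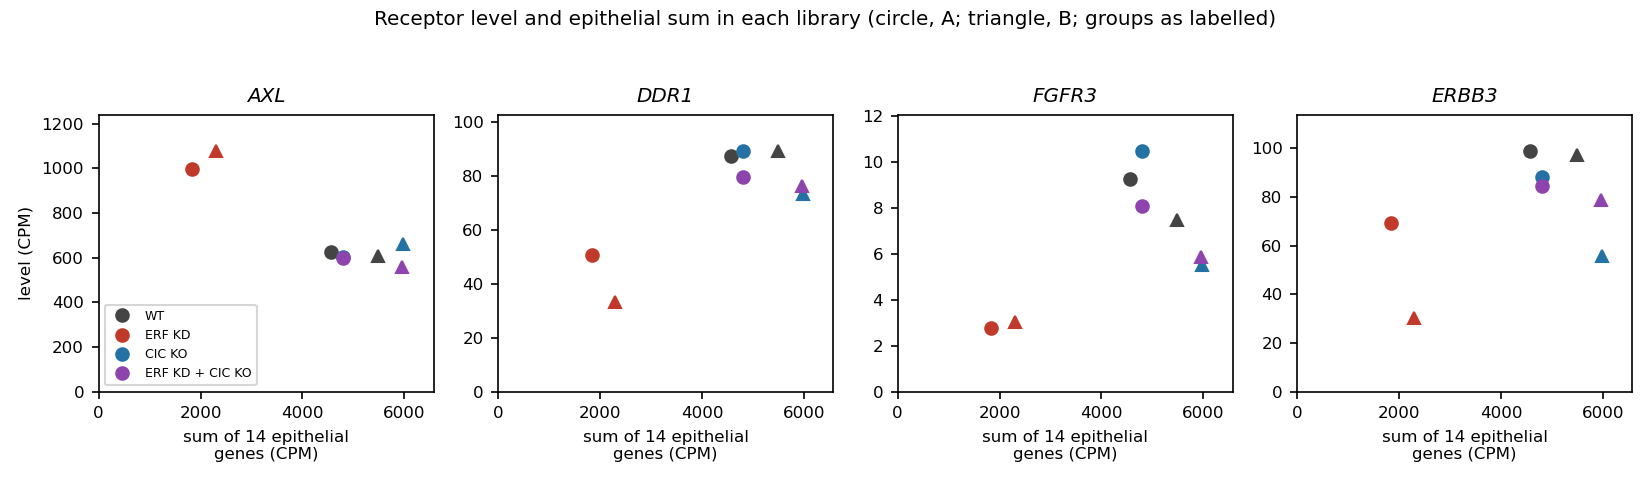
Level of *AXL*, *DDR1*, *FGFR3* and *ERBB3* in CPM against the summed CPM of 14 epithelial genes, a point for each of the 8 libraries with both axes from 0. The 2 libraries labelled *ERF* KD, at 1833 and 2303 CPM on the horizontal axis, hold the highest *AXL* and the lowest *DDR1* and *FGFR3*.

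Over the 8 libraries, in log2(CPM), *DDR1* and *ERBB3* were the most alike of the receptors (Pearson r = 0.90) and *AXL* and *DDR1* the most opposed (r = -0.93). The receptor closest to *FGFR3* was *DDR1* (r = 0.89), and the receptor closest to *AXL* was *FGFR1* (r = 0.74). Among all genes tested, *PTPRU* was closest to *DDR1* (r = 0.99), *P4HA3* to *AXL* (r = 0.99), *PIK3C2G* to *FGFR3* (r = 0.99), *PYGB* to *FGFR1* (r = 0.99) and *ADCY7* to *ERBB3* (r = 0.98). The closest genes were *CARS2* for *EGFR* (r = 0.97), *FCRL5* for *ERBB2* (r = 0.98), *EMC8* for *MET* (r = 0.96), *WDR6* for *IGF1R* (r = 0.94) and *CBWD2* for *EPHA2* (r = 0.94). With the epithelial adhesion gene *EPCAM*, r was -0.99 for *AXL* and 0.93 for *DDR1*, but 0.04 for *EGFR*, -0.05 for *EPHA2* and 0.18 for *IGF1R*. These are descriptions: the points share the same 4 groups, and the libraries labelled *ERF* KD carry much of the range.

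The promoters of 8 of the receptors were found in a RefSeq table (GRCh38.p14) of windows from 250 bases before to 50 bases after each annotated start, 17 windows of 35116. Motifs of the factors that this experiment or its cell state touch were searched on both strands. The CIC octamer (TGAATGAA, TGAATGGA, TCAATGAA or TCAATGGA) occurred in 3.77% of all windows and in 1 of the 17, at *EPHA2*. CCGGAA, an extended form of the GGAA core that ETS factors such as ERF bind, occurred in 17.2% of all windows. Of the 17 it was in 3, at *AXL*, *DDR1* and *ERBB2*. The *AXL* match lies in the window at the start of AXL-203, not that of AXL-201 or AXL-202. AXL-203 held at most 1.20% of *AXL* TPM in any library. GGAA itself was in 95.5% of all windows and in 16 of the 17. CACCTG, an E-box that ZEB1 and related factors bind, occurred in 20.6% of all windows and in 5 of the 17, at *AXL* and *DDR1*. Most of these 5 windows belong to *DDR1*, and overlapping windows of *DDR1* hold the same match (chromosome 6, 30883916 to 30883943). None of the *DDR1* E-box matches lies in the window with its CCGGAA match, where the leading transcript DDR1-239 starts. The windows below show 1 match for each gene and motif, in capitals within 28 bases, read along the gene's own strand. *ERBB2* had a second match to CCGGAA, which opens its line in lower case on the opposite strand, and *DDR1* had other E-box matches that are not shown. A match describes the letters only. The 3 receptors that were called in labelled *ERF* KD include the pair with an E-box, moving in opposite directions, and *FGFR3*, with no match to the octamer, CCGGAA or CACCTG.
EPHA2, octamer, chr1:16156086-16156113, minus strand: acgcagggcaTGAATGAAcaggagtcgg
ERBB2, CCGGAA, chr17:39688069-39688096, plus strand: ttccggagtaaCCGGAAgttcctgtgtt
DDR1, CCGGAA, chr6:30884518-30884545, plus strand: ggctcctctccCCGGAAcaggcccccga
AXL, CCGGAA on the opposite strand, chr19:41226508-41226535, plus strand: taccctcccctTTCCGGcctctgcagac
AXL, E-box on the opposite strand, chr19:41219106-41219133, plus strand: ccctgattgtcCAGGTGgcccctgggct
DDR1, E-box on the opposite strand, chr6:30882869-30882896, plus strand: ctgtgggctgcCAGGTGaggtgacttgg

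The other receptors of the family that edgeR called in labelled *ERF* KD against WT were all lower. Of the 29 others tested, 0 rose and 8 fell in labelled *ERF* KD against WT, with a median log2 fold change of -0.22 against 0.01 over all genes, and 13 had an unadjusted p under 0.05. That is 27.6% called, where 10.1% of all genes tested were (4.01% higher and 6.07% lower). The number called was between 6 and 9 with any 1 library left out. *EPHB3*, an ephrin-B receptor, was at 16.3 and 17.5 CPM in WT and at 1.20 and 1.59 CPM in labelled *ERF* KD (log2 -3.60, SE 0.270, adjusted p = 0.000163 by edgeR). *EPHA1*, an ephrin-A receptor like *EPHA2*, was at 33.5 and 35.7 CPM in WT and at 2.93 CPM in both libraries labelled *ERF* KD (-3.56, SE 0.174, adjusted p = 3.47e-05). The interval of *EPHA2* given above, from -0.32 to 0.55, does not reach these values. *FGFR2*, whose splicing differs between epithelial and mesenchymal cells, went from 19.7 and 15.2 CPM to 2.40 and 0.546 CPM (-3.55, SE 0.670, adjusted p = 0.0135, or 0.0518 without WT replicate A). *CSF1R* went from 10.3 and 8.97 CPM to 1.39 and 0.646 CPM (-3.23, SE 0.345, adjusted p = 0.000907). *MST1R*, a close relative of *MET*, *PTK7*, *STYK1* and *LMTK3* also fell, and the call of *PTK7* too was lost without WT replicate A. Against WT, *ERF* KD + *CIC* KO had 0 of the 29 called by edgeR, with 6 at an unadjusted p under 0.05.

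Some ligands of the 10 receptors rose. Of 28 listed, 21 were tested, and in labelled *ERF* KD against WT 5 rose (*FGF1*, *FGF2*, *NRG1*, *NRG2* and *PROS1*) and 0 fell, with a median log2 fold change of -0.22. That is 23.8% called, where 10.1% of all genes tested were. With the replicate block 8 were called, 5 of them higher, where 18.2% of all genes were. On length-scaled counts or TPM 0 were called. *FGF2*, a ligand of FGFR1, was at 95.5 and 114 CPM in WT and at 164 and 258 CPM in labelled *ERF* KD (1.01, SE 0.254, adjusted p = 0.0412 by edgeR). *FGF1*, which binds all FGF receptors, was at 3.99 and 5.61 CPM in WT and at 12.2 and 15.9 CPM in labelled *ERF* KD (1.55, SE 0.372, adjusted p = 0.0356). *NRG1*, a ligand of ERBB3, rose from 1.80 and 3.87 CPM to 8.60 and 7.70 CPM (1.52, SE 0.360, adjusted p = 0.0335), where *ERBB3* itself was lower. *PROS1*, protein S, which binds TAM receptors, went from 29.3 and 25.1 CPM to 78.3 and 44.4 CPM (1.17, SE 0.306, adjusted p = 0.0474). These calls rested on few libraries: 0 ligands were called without WT replicate A, *NRG1* without WT replicate B, *FGF2* without *ERF* KD replicate A, *PROS1* and, lower, *AREG* without *ERF* KD replicate B, and 2 or 3 ligands without any 1 library of the other groups. Among ligands of *EGFR*, *AREG* was at 50.1 and 117 CPM in WT and at 5.38 and 28.5 CPM in labelled *ERF* KD (-2.30, SE 0.766, adjusted p = 0.104), and *TGFA* at 44.0 and 66.3 CPM in WT and at 18.6 and 32.4 CPM in labelled *ERF* KD (-1.11, SE 0.369, adjusted p = 0.103). With the block, *AREG*, *TGFA* and *EPGN* were called lower. *GAS6*, the ligand of *AXL*, was at 152 and 120 CPM in WT and at 178 and 126 CPM in labelled *ERF* KD (0.16, SE 0.236, adjusted p = 0.732). *HGF*, the ligand of *MET*, was at most 0.186 CPM in every library and was not tested. No ligand (0) was called in *ERF* KD + *CIC* KO against WT by edgeR, with 2 at an unadjusted p under 0.05.

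Adaptors and the RAS-ERK core moved in both directions. All 28 listed were tested, and in labelled *ERF* KD against WT 4 rose and 2 fell, with a median log2 fold change of 0.09. That is 21.4% called, where 10.1% of all genes tested were. The block called 10, where it called 18.2% of all genes. Without WT replicate A, 1 was called, which is none of the genes named here, and without *ERF* KD replicate B, 3, with *GAB2* and *IRS1* among them. The docking protein *GAB2* went from 25.9 and 37.6 CPM to 93.5 and 69.5 CPM (log2 1.36, SE 0.259, adjusted p = 0.0139 by edgeR), while its relative *GAB1*, which docks on MET and EGFR, went from 40.3 and 33.1 CPM to 16.4 and 11.1 CPM (-1.41, SE 0.253, adjusted p = 0.0106). *IRS1*, the docking protein of IGF1R, rose from 75.6 and 70.7 CPM to 189 and 141 CPM (1.17, SE 0.214, adjusted p = 0.0118), where *IGF1R* did not pass. The adaptor *CRKL* rose by 0.77 (adjusted p = 0.0112), and *KSR1*, a scaffold of RAF, MEK and ERK, fell by 2.02 on the log2 scale (adjusted p = 0.0165). The calls of *CRKL* and *IRS1* were lost without WT replicate B, and those of *GAB2* and *IRS1* without *ERF* KD replicate A. Of the 28, 0 were called in *ERF* KD + *CIC* KO against WT by edgeR, with 4 at an unadjusted p under 0.05.

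A list of 16 genes, all tested, held receptor inhibitors, genes of receptor turnover and adaptors that bind receptor tails. Of these, 2 rose and 5 fell in labelled *ERF* KD against WT, with a median log2 fold change of -0.07. That is 43.8% called, where 10.1% of all genes tested were. *CBLC*, a ubiquitin ligase of the CBL family, was at 24.4 and 22.6 CPM in WT and at 1.87 and 1.59 CPM in labelled *ERF* KD (-3.76, SE 0.191, adjusted p = 3.47e-05 by edgeR). *ERRFI1*, which encodes the EGFR inhibitor MIG6, was at 83.7 and 125 CPM in WT and at 15.9 and 23.2 CPM in labelled *ERF* KD (-2.42, SE 0.306, adjusted p = 0.00219). *GRB7* and *GRB14*, adaptors that bind receptor tails, fell by 2.24 and 1.98 on the log2 scale (adjusted p = 0.00806 and 0.0325). Their relative *GRB10* rose by 2.34 from 0.807 and 0.612 CPM (adjusted p = 0.0192), and *LRIG3*, of a family of receptor regulators, by 0.83 (adjusted p = 0.0265). *PTPRF*, a receptor phosphatase, also fell. The calls of *GRB10*, *GRB14* and *LRIG3* were lost on TPM. Without any 1 library of WT or labelled *ERF* KD 4 genes were called, each of them lower: *CBLC*, *ERRFI1* and *GRB7*, with *PTPRF* or, without WT replicate B, *GRB14*. Of the 16, 0 were called in *ERF* KD + *CIC* KO against WT by edgeR, with 1 at an unadjusted p under 0.05.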

How the data were processed

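RNA-seq libraries of PNT2 cells were grouped by their genotype labels. For each library the authors deposited kallisto tables with estimated counts (not normalized), TPM and effective lengths per transcript, whereas their methods name another quantifier and the submitters' processing notes name build hg19. The kallisto version, transcript annotation and strandedness are not given in the sources used here. Of 180253 transcripts, 153245 (85.0%) matched GENCODE release 29 (GRCh38) by identifier. Their counts, which held between 93.2% and 93.3% of each library, were summed per gene and rounded, and gene TPM was the sum over transcripts. Reads shared by near-identical or overlapping genes were divided by kallisto.

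Counts were tested with edgeR 4.0.16 in R 4.3.3 (TMM, filterByExpr, glmQLFit and glmQLFTest). The 4 groups were in 1 fit, since 2 libraries a group estimate the spread poorly. The alternatives were DESeq2 1.42.0, limma 3.58.1 on log2(TPM + 1) and log2(TPM + 0.1), length-scaled counts, no low-count filter, the replicate letter as a block, only the groups compared, and each library left out. The test was checked on simulated data. An exact permutation test of 2 libraries against 2 cannot pass 0.05, so none was used.

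The receptors and the gene lists were chosen with earlier results of these data known. Named genes were the 10 receptors, *ERF*, *CIC*, *CDH1*, *EPCAM*, *VIM* and *ZEB1* and, of each list, up to 4 called genes in each direction with a mean of at least 1 CPM, by size of change, and for each receptor the most similar receptor and gene, and its leading transcripts. Some genes of these lists are not reported here. Others, such as the cell markers, *GAS6* and *HGF*, were named after their values were seen. Replicates differed by more than sampling noise (chi-square over its degrees of freedom, 21.7 to 43.4). The letters A and B come from the sample titles. The log2 difference of B and A correlated across genes between every pair of groups (r from 0.136 to 0.335), and the blocked fit, an alternative here, takes same-lettered libraries as pairs. The biological coefficient of variation was 0.197 without the block and 0.142 with it.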

Additional observations from a re-analysis of the deposited data

Results flagged for a closer look

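Of 30 named genes tested in the interaction of *ERF* KD and *CIC* KO, 11 passed an adjusted p of 0.05 by edgeR, where 4.15% of all genes did, which means that their change with *ERF* KD differed between cells with and without *CIC* KO. Of the 10 receptors, *AXL* passed, with an interaction of -0.88 (SE 0.185, adjusted p = 0.0373). Of the other receptors, *EPHB3* (4.42), *FGFR2* (3.98), *EPHA1* (3.84) and *CSF1R* (3.60) passed. Of the adaptors and RAS-ERK core, *KSR1* (2.75), *GAB1* (1.93) and *GAB2* (-1.99) did. Of the list of inhibitors, turnover genes and adaptors that bind receptor tails, *CBLC* (3.86), *GRB7* (2.68) and *ERRFI1* (2.31) did. Most of the named genes were chosen for their change in labelled *ERF* KD, which enters the interaction term with its sign turned, so the count and the signs are not independent of that choice. The single-loss labels are in doubt, and exchanging them leaves these values as they are.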

How the results depend on the processing

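The number of receptors called moved with the fit. In labelled *ERF* KD against WT it was 3, and 5 with no filter on low counts or with the replicate block, 4 with DESeq2, 2 on length-scaled counts or on either TPM scale, and between 0 and 3 with each library left out. In *ERF* KD + *CIC* KO against labelled *ERF* KD it was 2, and 4 with DESeq2, 5 with no filter and 4 with the replicate block (1 to 3 with a library left out). In labelled *ERF* KD against labelled *CIC* KO it was 3, and 5 with no filter and 0 with only the groups compared (0 to 3). For the interaction it was 1, and 2 with DESeq2, 4 with no filter, 3 with the replicate block and 0 on length-scaled counts or on either TPM scale (0 to 2). It stayed 0 in the other comparisons under each alternative. Calls over all genes moved too. *ERF* KD + *CIC* KO against labelled *ERF* KD had 1709 calls, 2320 with DESeq2, 2798 with no filter and 3014 with the block. Labelled *ERF* KD against labelled *CIC* KO had 1377, 2367 with no filter and 829 with only the groups compared. The interaction had 608, 1112 with DESeq2, 1645 with no filter, 1400 with the block and 312 to 475 on length-scaled counts or TPM. With no filter, 22195 genes were tested in place of 14653. Over all genes, labelled *ERF* KD against WT had 1477 calls, 620 without WT replicate A, 659 without WT replicate B, 2057 with DESeq2, 2577 with no filter and 2671 with the block, and *ERF* KD + *CIC* KO against WT had 10, against 444 with DESeq2, 768 with no filter and 365 with the block. Called ligands went from 5 to 11 with no filter, 8 with the block, 2 with only the groups compared and 0 on length-scaled counts or TPM (0 to 3). Called adaptors went from 6 to 10 with the block (1 to 6). Called genes of the list of inhibitors, turnover and receptor-tail adaptors went from 7 to 4 on length-scaled counts or TPM (4 to 7). Other receptors called went from 8 to between 6 and 9. Among the fold changes of named genes followed through each alternative, the block changed no call beside those stated. Over all genes, the block gave 2424 calls in labelled *ERF* KD against labelled *CIC* KO. It gave 49 in *ERF* KD + *CIC* KO against labelled *CIC* KO and 1 in labelled *CIC* KO against WT. Directions reversed for fold changes between -0.12 and 0.21. In labelled *ERF* KD against WT, *MET* was 0.00 and became -0.00164 with DESeq2 and -0.0152 with only the groups compared. In labelled *CIC* KO against WT, *EGFR* became -0.0292 on log2(TPM + 1) and -0.0294 on log2(TPM + 0.1), *AXL* -0.0278 and -0.0279, and *IGF1R* -0.11 on length-scaled counts and -0.15 on both TPM scales. In *ERF* KD + *CIC* KO against WT, *IGF1R* became -0.00072 on length-scaled counts and -0.0586 and -0.0600 on the TPM scales. With each library left out, 14 values reversed: in labelled *ERF* KD against WT, *EGFR* ran from -0.353 to 0.265 and *MET* from -0.0366 to 0.0343. In labelled *CIC* KO against WT, *EGFR* ran from -0.142 to 0.201, *AXL* from -0.0316 to 0.105, *DDR1* from -0.267 to 0.0151 and *FGFR3* from -0.607 to 0.323, and in *ERF* KD + *CIC* KO against WT *EGFR* ran from -0.0842 to 0.0213. The cause of these shifts was not tested. *FGFR3*, at 10.5 CPM or less, had the fewest reads of the 10.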

Other observations

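A few receptors outside the 10 were called only in comparisons other than labelled *ERF* KD against WT. The genes of this paragraph were named after their values were seen. *NTRK2* was called lower in *ERF* KD + *CIC* KO than in labelled *ERF* KD. It was at 4.23 and 2.48 CPM in labelled *ERF* KD and at most 0.529 CPM in the other libraries. *NTRK3*, at most 3.02 CPM in any library, was called in the interaction, with a negative sign. *FGFR4*, a relative of *FGFR1* and *FGFR3*, was at 4.23 and 4.03 CPM in WT, 3.27 and 1.59 CPM in labelled *ERF* KD, 5.44 and 3.03 CPM in labelled *CIC* KO, and 10.5 and 6.60 CPM in *ERF* KD + *CIC* KO, where it was higher than in labelled *ERF* KD by 1.81 on the log2 scale (SE 0.446, adjusted p = 0.0353 by edgeR). *DDR2*, the collagen receptor related to *DDR1*, was at 7.92 and 4.57 CPM in labelled *ERF* KD, with a mean of 1.67 CPM in labelled *CIC* KO, a log2 difference of 1.90 (SE 0.441, adjusted p = 0.0322), opposite in sign to that of *DDR1* (-0.96). *TYRO3*, which belongs to the TAM group with *AXL*, was at 43.5 and 47.4 CPM in WT and at 52.2 and 55.2 CPM in labelled *ERF* KD, and its log2 fold change of 0.24 (SE 0.129) did not pass (adjusted p = 0.299).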
